A study of Arabidopsis thaliana with 96 samples.

Results

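The comparison described here sets leaves of Arabidopsis thaliana plants watered with 10 mM nitrate against leaves of plants watered with 5 mM nitrate, both grown in mid light, a photon flux of 250 µmol per square metre and second. It takes 16 of the 96 libraries of the experiment, 8 at 10 mM and 8 at 5 mM, chosen by the light level and the nitrate dose in the sample titles. All 16 plants carried the Col-0 genotype, the standard laboratory accession, and differed by label only in the nitrate of a diluted Hoagland's nutrient solution given after transplanting to clay pots in short days. Each library was made from the polyadenylated RNA of leaf punches of a single plant, so the spread within a dose is a spread between plants. Numbering of the libraries runs through 4 sets of 24 consecutive codes, each holding 2 plants of every group, and the comparison was made within these code sets. The labels do not say whether a code set was also a batch.

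Nitrate is both the main nitrogen source of the plant and a signal. In the leaf it is stored in the vacuole or reduced by nitrate reductase and nitrite reductase to ammonium, which glutamine synthetase builds into amino acids. Nitrate sensing by NLP transcription factors induces these enzymes together with a set of regulators, among them the LBD37 group, the BTB/TAZ protein BT2 and myb-like repressors. A large share of leaf nitrogen sits in Rubisco and chlorophyll-binding proteins, and Arabidopsis plants short of nitrogen accumulate anthocyanins.

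The libraries held 12004976 to 17734808 counts at 10 mM and 9923608 to 13711242 counts at 5 mM, and the TMM scaling factors ran from 0.821 to 0.972 at 10 mM and from 0.882 to 1.2 at 5 mM. Levels below are CPM, counts scaled to library size with TMM factors, which are not corrected for gene length and are compared only within a gene. Of the tissue markers, RBCS1A, a small subunit of Rubisco, averaged 18400 CPM at 10 mM and 10900 CPM at 5 mM, while the 5 root and flower markers together reached at most 0.56 CPM at 10 mM and 0.501 CPM at 5 mM. Chloroplast-encoded genes took 3.21% ± 0.543 of the counts at 10 mM and 3.19% ± 0.668 at 5 mM (SD, n = 8 each; exact two-sided permutation test within code sets, p = 0.94). Mitochondrial genes took 0.146% ± 0.0299 at 10 mM and 0.215% ± 0.0634 at 5 mM (exact permutation p = 0.00463), and the difference was negative in each of the 4 code sets. The 10 most abundant genes took 9.44% ± 0.943 at 10 mM and 7.99% ± 1.78 at 5 mM (exact permutation p = 0.0432). That p ran from 0.0231 to 0.12 when 1 library was left out, and passed 0.05 without 10 mM replicates 3, 4, 6, 7 or 8 or 5 mM replicates 1, 2, 3 or 5. The part of these shares in the gene results below was not tested.

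With the spread between plants estimated over all 96 libraries, 2694 of 19498 tested genes (13.8%) passed edgeR's quasi-likelihood test, with a threshold of 0.05 on the Benjamini-Hochberg adjusted p. At 10 mM, 1386 of them were higher (7.11%) and 1308 lower (6.71%). Most of these changes were small: their median size was a log2 of 0.58, and 223 genes were at least 2-fold higher and 236 at least 2-fold lower. The calls rest on that pooled spread and on the code sets. A fit of the 16 libraries alone called 0 genes with edgeR, although 5008 of its 17691 tested genes had an unadjusted p under 0.05 (smallest adjusted p 0.0692). Leaving out code set 1 left 100 calls and leaving out code set 2 left 0. Leaving out 1 library gave between 1266 and 3632 calls. The count dropped by more than 1.5 times without 10 mM replicates 2, 3 or 6 (1399, 1345 and 1695 calls) and without 5 mM replicates 2, 3, 5 or 8 (1429, 1267, 1266 and 1504 calls). For the called genes named below, it is stated where fewer than all 16 of these fits still called them. This is done by a number, by a range for several genes, or by the libraries whose omission lost the call. For SRS and OVA1, in the closing section, it is not given.

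Of the genes that reduce nitrate and build ammonium into amino acids, NIA2, NIR1, UPM1 and GLN2 were higher in the plants given 10 mM nitrate. NIA2, which encodes the main nitrate reductase of the leaf, had 449 to 1840 CPM (median 1010) at 10 mM and 149 to 989 CPM (median 320) at 5 mM. Of the 5 mM plants, replicates 6 and 7, with 989 and 682 CPM, lay inside the range of the 10 mM plants and the other 6 lay below it. The fitted log2 change of NIA2 was 1.31 ± 0.40 (SE, adjusted p = 0.0231), called in 10 of the 16 fits. By code set, 1 to 4, its difference in log2 CPM was 2.84, 1.56, 1.36 and 0.18.

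NIR1, nitrite reductase, had 308 to 571 CPM (median 435) at 10 mM and 51.8 to 473 CPM (median 252) at 5 mM, with the lowest value in 5 mM replicate 2 and 3 of the 5 mM plants inside the 10 mM range. Its log2 change was 0.95 ± 0.30 (adjusted p = 0.0291), called in 7 of the 16 fits, and its difference in log2 CPM was 2.42, 0.85, 0.55 and 0.18 in code sets 1 to 4. UPM1, the methyltransferase that starts synthesis of siroheme, the cofactor of nitrite reductase, had 71.3 to 124 CPM at 10 mM (median 84.5) and 15.6 to 107 CPM at 5 mM (median 36.7). Only 5 mM replicate 6 reached the 10 mM range, and the log2 change was 1.07 ± 0.25 (adjusted p = 0.00697). GLN2, the chloroplast glutamine synthetase, averaged 1700 ± 231 CPM at 10 mM against 1100 ± 565 CPM at 5 mM (± SD over 8 plants, here and below), a log2 change of 0.78 ± 0.20 (adjusted p = 0.00977).

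Of the 25 tested genes listed for nitrate reduction and ammonium assimilation, these 4 rose, 1 fell and 20 did not pass, with a median log2 change of 0.21 against -0.02 over all tested genes. The 4 that rose stand against 7.11% higher over all tested genes. They became 2 without 10 mM replicates 2 or 6 or 5 mM replicates 1, 2, 3 or 5, and 8 without 5 mM replicate 6. No gene of the list was called without code set 1 or without code set 2. The gene that fell was GLN1;4, a cytosolic glutamine synthetase, at 18.6 ± 11.3 CPM at 10 mM and 43 ± 32.1 CPM at 5 mM (adjusted p = 0.0358, called in 7 of the 16 fits). NIA1, the second nitrate reductase gene, had a log2 change of 1.22 ± 0.52 that missed the threshold (adjusted p = 0.0973). ASN1, an asparagine synthetase induced by carbon starvation, ran from 16 to 284 CPM at 10 mM and from 1.79 to 290 CPM at 5 mM, and did not pass (adjusted p = 0.163).

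Among 18 tested genes of nitrate transport and storage, only CLCA was called. CLCA, the exchanger that loads nitrate into the leaf vacuole, had 44.9 to 171 CPM (median 99.2) at 10 mM and 6.26 to 90.3 CPM (median 17.8) at 5 mM. The 5 mM plants split visibly: replicates 6, 7 and 8 had 80.9, 90.3 and 83.8 CPM, and the other 5 had at most 19.8 CPM. The log2 change was 1.80 ± 0.53 (adjusted p = 0.0194), called in 13 of the 16 fits. By code set, 1 to 4, the difference of CLCA in log2 CPM was 3.26, 2.47, 2.18 and -0.1. The high-affinity transporter genes NRT2.5 and NRT2.1 were near the detection limit, at 0.763 and 0.338 CPM at 10 mM and 2.92 and 0.729 CPM at 5 mM, and neither was called (adjusted p = 0.0774 and 0.377). The list median was 0, and over all tested genes 7.11% rose and 6.71% fell. In the list of ammonium, urea and amino acid transporters 0 genes rose and 2 of 12 fell: the amino acid permeases AAP6 (82.7 ± 42.1 CPM at 10 mM, 145 ± 60.7 CPM at 5 mM, adjusted p = 0.0099) and AAP2 (62.4 ± 92.1 and 85.1 ± 58.7 CPM, adjusted p = 0.0482). AAP2 was called in 6 of the 16 fits, and its log2 change of -1.81 was -1.01 without 5 mM replicate 8. Of the 5 mM plants, 7 lay inside the 10 mM range of AAP2, 1 below it and 0 above it. By code set, 1 to 4, the difference of AAP2 in log2 CPM was 0.68, -2.81, -0.21 and -2.19.

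**Figure D1:**
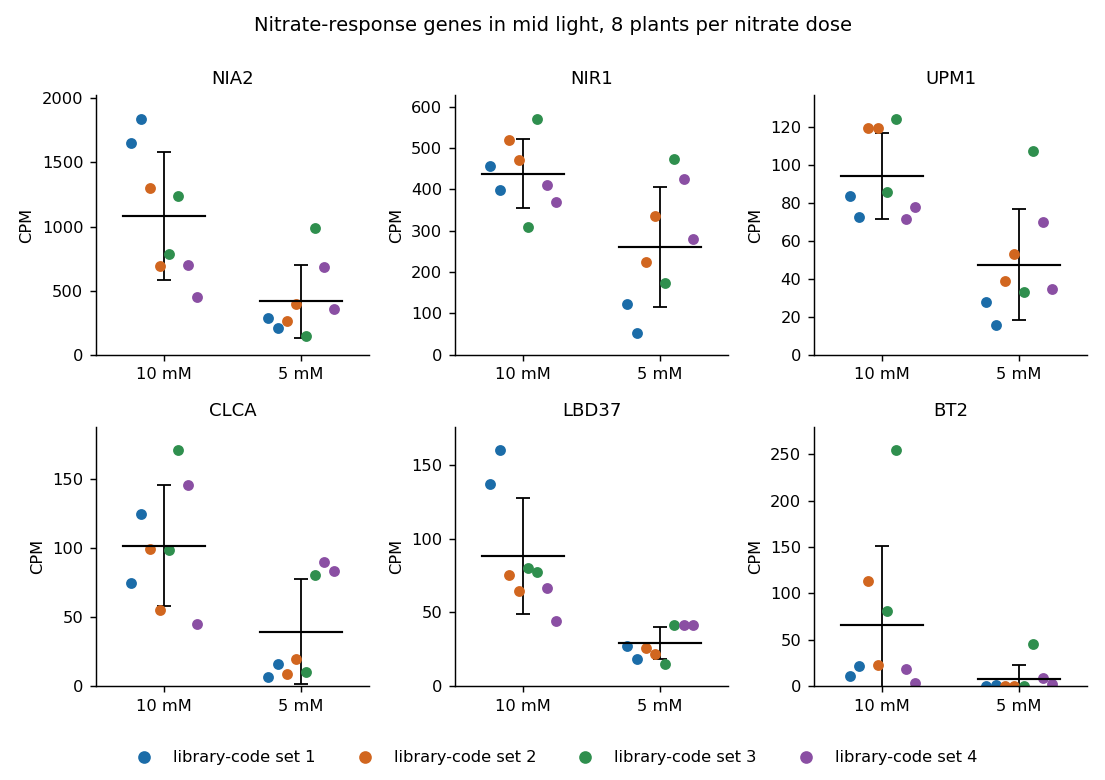
CPM of 6 nitrate-response genes in mid light, 10 mM left and 5 mM right, 1 point per plant coloured by library-code set, with the mean (horizontal line) and SD (bar) of 8 plants per dose. LBD37 ran from 44.2 CPM upward at 10 mM and up to 41.8 CPM at 5 mM, while for NIA2 and CLCA some 5 mM plants lie in the 10 mM range. The share of genes without overlap over all tested genes is not given here, so this does not set LBD37 apart.

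Among nitrate-induced regulators, 8 of 21 tested genes rose and 2 fell, where 7.11% of all tested genes rose and 6.71% fell, and the median log2 change was 0.13. The 8 became 5 without 10 mM replicate 6, and the 2 became 0 without 10 mM replicates 2 or 3 or 5 mM replicates 2, 3 or 5. Both counts were 0 without code set 1 or without code set 2. The groups of LBD37, a transcriptional repressor of nitrogen-starvation and anthocyanin genes, did not overlap, nor did those of WAK1 below. The share of such genes over all tested genes is not given here, so this does not set them apart. LBD37 had 44.2 to 160 CPM (median 76.6) at 10 mM and 14.9 to 41.8 CPM (median 26.5) at 5 mM, a log2 change of 1.56 ± 0.38 (adjusted p = 0.00753). Both plants of code set 1 at 10 mM were the highest, at 137 and 160 CPM.

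BT2, which in Arabidopsis restrains nitrate uptake genes, had 2.82 to 254 CPM (median 22.4) at 10 mM and 0 to 45.6 CPM (median 0.371) at 5 mM. At 5 mM, 3 plants had no count and only replicates 6 and 7, with 45.6 and 8.51 CPM, lay within the 10 mM range. The fitted log2 change was 3.48 ± 0.96 (adjusted p = 0.0132). It was 5.86 without 5 mM replicate 6, and the call was lost without 10 mM replicate 6.

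The LBD37 relatives LBD39 and LBD38 and a second BTB/TAZ gene, BT5, named here after their values were seen, also rose. LBD39 averaged 6.84 ± 4.02 CPM at 10 mM and 1.41 ± 2.37 CPM at 5 mM (log2 change 3.04 ± 0.88, adjusted p = 0.017). LBD38 averaged 8.17 ± 2.4 CPM at 10 mM and 3.18 ± 3.2 CPM at 5 mM (adjusted p = 0.0331, called in 8 of the 16 fits), and BT5 22.8 ± 20.6 CPM at 10 mM and 5.5 ± 4.37 CPM at 5 mM (adjusted p = 0.0462, called in 4 of the 16 fits). BT5 went the other way within code set 4.

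Also higher were 2 genes that RefSeq describes as myb-like transcription factors. AT1G68670 had 69.4 to 126 CPM at 10 mM and 26.8 to 84.3 CPM at 5 mM, with only 5 mM replicate 6 inside the 10 mM range, a log2 change of 1.06 ± 0.28 (adjusted p = 0.0105). AT1G25550, also chosen after its values were seen, had a log2 change of 1.51 ± 0.43 (adjusted p = 0.0152). The kinase gene CIPK3, a partner of calcium sensors, had 55 ± 17.8 CPM at 10 mM and 28.5 ± 11.4 CPM at 5 mM (adjusted p = 0.00717). The 2 genes of the list that fell were NLP8, a regulator of nitrate-promoted germination, at 30.4 ± 10.6 CPM at 10 mM and 53.9 ± 31 CPM at 5 mM (adjusted p = 0.0372), and CIPK23, the kinase that acts on nitrate and potassium transporters, at 24 ± 4.68 and 32.8 ± 8.53 CPM (adjusted p = 0.036). Both were called in 8 of the 16 fits.

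The CC-type glutaredoxins, several of which are induced by nitrate, had the highest list median, 1.68. Only 1 of 10 rose and 1 fell, beside 7.11% higher and 6.71% lower over all tested genes. AT4G15670 had 1.1 to 15.6 CPM at 10 mM and 0 to 4.46 CPM at 5 mM (adjusted p = 0.0408, called in 6 of the 16 fits). AT2G47880, a glutaredoxin family gene chosen after its values were seen but also named by the rule for small p, had 51.2 ± 18.5 CPM at 10 mM and 86.7 ± 29.9 CPM at 5 mM (adjusted p = 0.048, called in 5 of the 16 fits). AT4G15670 lies in a cluster of near-identical copies, so its counts are uncertain against those of its neighbours.

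Many photosynthesis genes were called, and each of these in the upward direction. All 20 tested genes of the Calvin cycle, which fixes carbon dioxide, rose (median log2 change 0.75, range 0.32 to 1.39), as did 19 of 23 chlorophyll synthesis genes (median 0.79), 14 of 31 nuclear genes of the photosystems and electron transport (median 0.58), 9 of 16 photorespiration genes (median 0.48) and 4 of 20 antenna genes (median 0.65). No gene of these 5 lists fell, and every tested member had a positive log2 change. Over all tested genes 7.11% rose and the median was -0.02. The counts of the last 3 lists rest on single libraries: 17 photosystem, 7 photorespiration and 16 antenna genes did not pass, and without 1 library the photosystem count ran from 4 to 27, the photorespiration count from 1 to 13 and the antenna count from 0 to 14. The photosystem and antenna counts moved by more than 1.5 times in every such fit but those without 10 mM replicate 8 or 5 mM replicate 7, and the photorespiration count in those without 10 mM replicates 1, 2 or 6 or 5 mM replicates 2, 3 or 5. The Calvin cycle and chlorophyll counts became 11 and 11 without 5 mM replicate 2 and moved by less in the other 15 fits. Without code set 1 or without code set 2, 0 genes of the 5 lists were called.

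**Figure D2:**
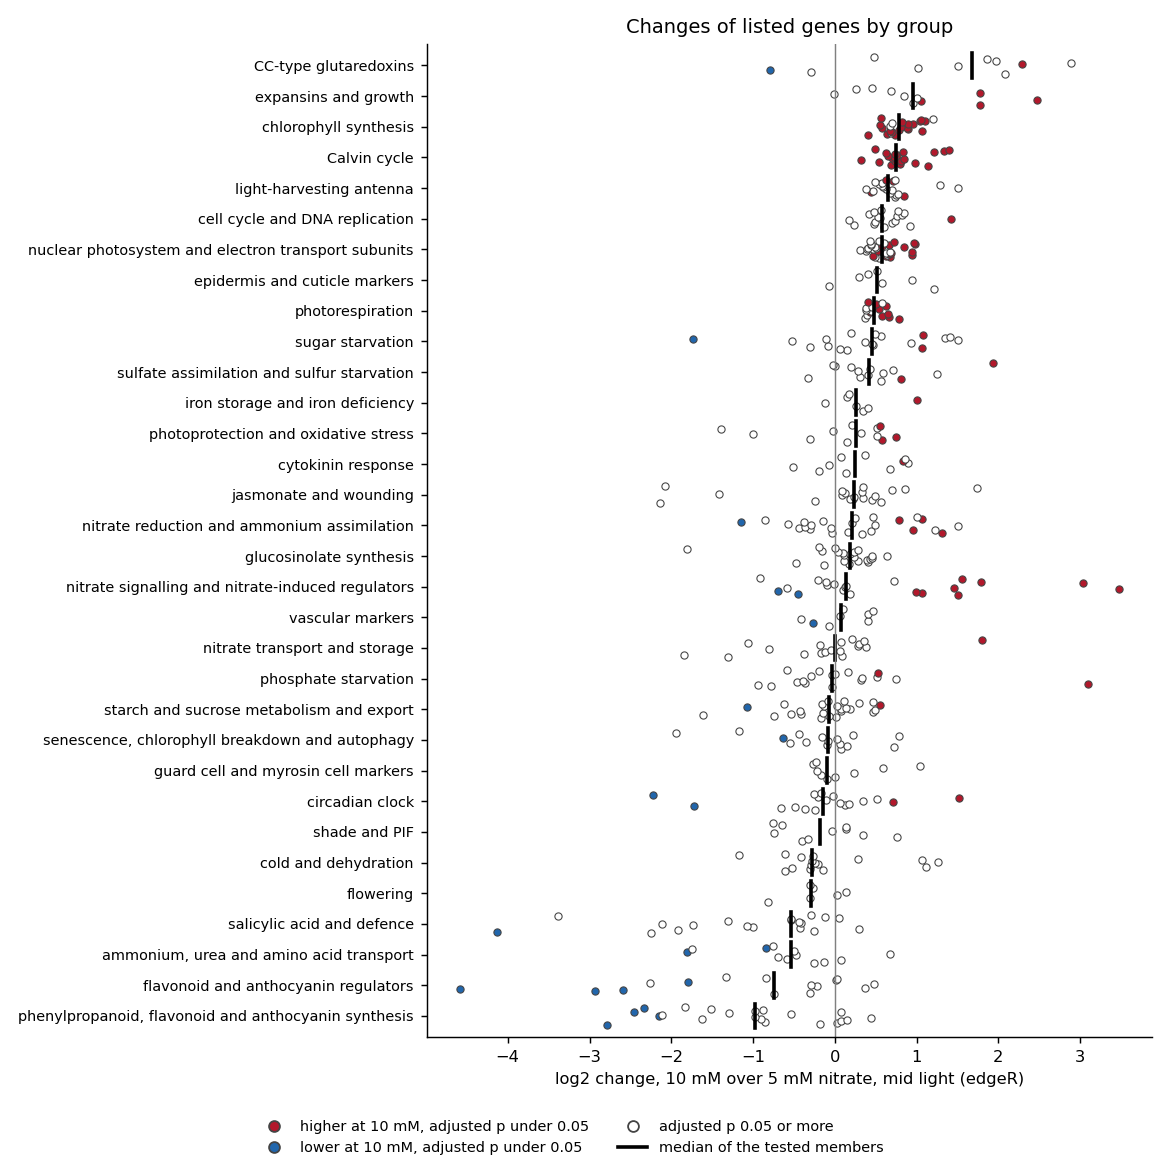
Fitted log2 change, 10 mM over 5 mM nitrate in mid light, of every tested member of the gene lists, ordered by list median (black bar). Filled points had an adjusted p under 0.05, red for higher and blue for lower at 10 mM. The Calvin cycle, chlorophyll, photosystem, antenna and photorespiration members all lie above 0, and the flavonoid and anthocyanin enzymes have the lowest median, -0.98.

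Single plants differed widely at 5 mM. Summed over the 20 Calvin cycle genes, the 10 mM plants held 50200 to 83400 CPM (median 69800) and the 5 mM plants 10700 to 70000 CPM (median 35700). The sums of the 5 mM plants, replicate 1 to 8, were 21900, 10700, 27200, 52000, 28600, 67700, 70000 and 42900 CPM. Replicates 1, 2, 3 and 5 lay below every 10 mM plant in all 20 genes, whereas replicates 6 and 7 lay inside the 10 mM range in all 20. Chlorophyll synthesis genes split the same plants: replicates 1 and 2 lay below every 10 mM plant in 23 of 23 genes, and replicate 6 in 0 of 23 and replicate 7 in 0 of 23. Replicate 7 lay above every 10 mM plant in 6 of the 23. The share of all tested genes in which each plant lay outside the 10 mM range is not given here, so these counts do not set the 2 lists apart.

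RBCS1B, a small subunit of Rubisco, had 1420 to 2520 CPM (median 2030) at 10 mM and 226 to 2030 CPM (median 521) at 5 mM. Only 5 mM replicates 6 and 7, with 1760 and 2030 CPM, reached the 10 mM range. Its log2 change of 1.39 ± 0.34 (adjusted p = 0.00801) was the largest of the Calvin cycle list. RBCS1B, RBCS2B and RBCS3B are near-identical and uncertain one against another, but all 3 were called in the same direction, RBCS2B in 15 of the 16 fits. RBCS1A had a log2 change of 0.98 ± 0.27 (adjusted p = 0.0129). FBA2, the main chloroplast aldolase, averaged 4240 ± 643 CPM at 10 mM and 2550 ± 1050 CPM at 5 mM (adjusted p = 0.00697). TKL1, transketolase, averaged 2260 ± 288 CPM at 10 mM and 1450 ± 598 CPM at 5 mM (adjusted p = 0.00717).

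In chlorophyll synthesis, the 4 genes with the smallest p-values were CHLI1, HEMA1, GSA2 and HEMC. CHLI1, a subunit of magnesium chelatase, had 267 to 627 CPM (median 508) at 10 mM and 87.8 to 597 CPM (median 209) at 5 mM, with 5 mM replicates 4, 6 and 7 inside the 10 mM range and the other 5 below it (log2 change 0.96 ± 0.22, adjusted p = 0.00697). HEMA1, the glutamyl-tRNA reductase that commits glutamate to tetrapyrroles, averaged 908 ± 164 CPM at 10 mM and 467 ± 277 CPM at 5 mM (log2 change 1.07 ± 0.27, adjusted p = 0.00801). GSA2, the next enzyme, had 152 ± 46.9 CPM at 10 mM and 90.7 ± 59.2 CPM at 5 mM (adjusted p = 0.00717), and HEMC, porphobilinogen deaminase, 230 ± 78.1 CPM at 10 mM and 145 ± 97.6 CPM at 5 mM (adjusted p = 0.00827).

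Electron transport genes with the smallest p-values were the ATP synthase subunits ATPC1 (1650 ± 189 CPM at 10 mM, 1110 ± 422 CPM at 5 mM, adjusted p = 0.00828) and ATPD (1740 ± 335 and 1010 ± 607 CPM, adjusted p = 0.00939), the ferredoxin FD2 (2790 ± 616 and 1640 ± 987 CPM, adjusted p = 0.0093) and the plastocyanin PETE2 (3750 ± 561 and 2230 ± 1270 CPM, adjusted p = 0.0122). All 4 remained called in the 16 fits. Among antenna proteins, LHCB5 averaged 7460 ± 1070 CPM at 10 mM and 5150 ± 2510 CPM at 5 mM (adjusted p = 0.0416), and LHCB4.1 4120 ± 573 CPM at 10 mM and 2930 ± 1240 CPM at 5 mM (adjusted p = 0.0399), both called in 6 of the 16 fits. LHCA5 and LHCA6, of the photosystem I antenna, were called with adjusted p of 0.0238 and 0.0487, in 12 and 6 of the 16 fits. CAT2, the leaf peroxisomal catalase that removes photorespiratory hydrogen peroxide, had 1580 ± 652 CPM at 10 mM and 972 ± 183 CPM at 5 mM (log2 change 0.62 ± 0.18, adjusted p = 0.017), and lost its call without 5 mM replicate 2. In photoprotection, 3 of 12 genes rose, where 7.11% of all tested genes rose. They were AT5G02120 (adjusted p = 0.0265, called in 9 of the 16 fits), TAPX, the thylakoid ascorbate peroxidase (adjusted p = 0.0161, lost without 5 mM replicate 2), and VDE1, the violaxanthin de-epoxidase (adjusted p = 0.0372, called in 6 of the 16 fits).

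The size of these changes differed between the code sets. The median difference of the Calvin cycle genes in log2 CPM was 1.9, 0.66, 0.43 and 0.2 in code sets 1 to 4, that of the chlorophyll genes 1.45, 0.95, 0.54 and 0.35, and that of the antenna genes 1.66, 0.64, 0.25 and 0.06. The same medians over all tested genes were -0.05, -0.04, -0.01 and -0.01. Flavonoid and anthocyanin enzymes had medians of -1.48, -1.32 and -0.53 in code sets 1 to 3 and 0.28 in code set 4. Code set 1 held 5 mM replicates 1 and 2, and code set 4 held 5 mM replicates 7 and 8. With 2 plants per dose in each set, fits within code sets 1 to 4 called 0, 36, 2 and 0 genes.

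**Figure D3:**
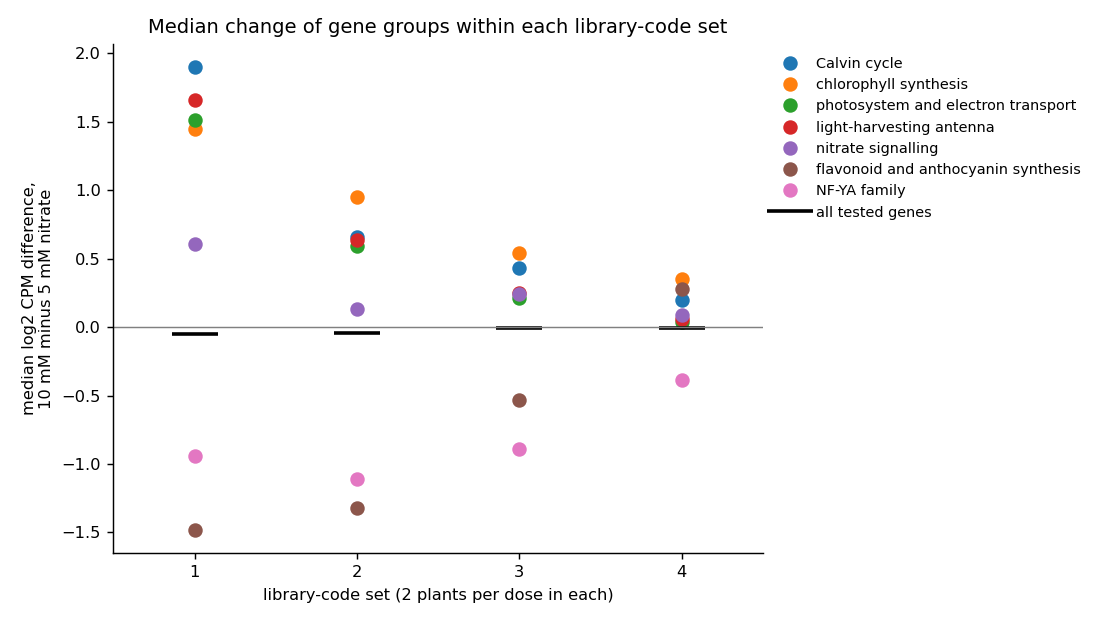
Median difference in log2 CPM, 10 mM minus 5 mM nitrate, of 7 gene groups within each of the 4 library-code sets, with 2 plants per dose in each, and of all tested genes (black bars). Calvin cycle genes ran from 1.9 in set 1 to 0.2 in set 4, and the NF-YA family was below 0 in every set.

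Several anthocyanin genes were lower at 10 mM. Of 21 tested enzymes of phenylpropanoid, flavonoid and anthocyanin synthesis, 0 rose and 4 fell (median log2 change -0.98), and of 15 regulators 0 rose and 4 fell (median -0.74). Over all tested genes 6.71% fell. The 4 enzymes became 2 without 5 mM replicate 1 and 1 without 5 mM replicate 3, but 8, 10, 7, 11 and 8 without 10 mM replicates 1 and 8 and 5 mM replicates 4, 6 and 7. The 4 regulators became 1 without 10 mM replicate 2 or 5 mM replicate 3, and neither list had a call without code set 1 or without code set 2. DFR, the first committed enzyme of anthocyanin synthesis, had 0.467 to 117 CPM (median 9.75) at 10 mM and 0.413 to 461 CPM (median 126) at 5 mM. The high plants at 5 mM were replicates 1, 2, 3 and 5, with 461, 222, 330 and 244 CPM, and replicate 6, with 0.413 CPM, was lower than any 10 mM plant. The log2 change was -2.34 ± 0.84 (adjusted p = 0.0498), called in 6 of the 16 fits.

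F3'H, the flavonoid 3'-hydroxylase, averaged 4.6 ± 2.48 CPM at 10 mM and 32.5 ± 53.1 CPM at 5 mM (log2 change -2.46 ± 0.65, adjusted p = 0.0108). Its call was lost without 5 mM replicate 1 (log2 change -1.49), which had 155 CPM, or without 5 mM replicate 3. CHS, chalcone synthase, which starts the flavonoid pathway, had 142 ± 41.3 CPM at 10 mM and 291 ± 238 CPM at 5 mM and was not called (adjusted p = 0.252). The other enzymes that fell were AT4G14090, a UDP-glycosyltransferase family gene (15.6 ± 23.1 CPM at 10 mM, 75.2 ± 89.2 CPM at 5 mM, adjusted p = 0.0155, lost without 5 mM replicate 3), and AT1G03940, an acyltransferase family gene (2.77 ± 3.96 and 22.3 ± 26.6 CPM, adjusted p = 0.00649). The early enzymes PAL1 and C4H had log2 changes of 0.15 and 0.07 and were not called.

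PAP2, a MYB activator of anthocyanin genes, had no count in 5 of the 8 plants at 10 mM and reached 0.867 CPM in replicate 5. At 5 mM it had 15.7, 23.4 and 6.26 CPM in replicates 1, 2 and 3, 1.17 CPM in replicate 5, 0.161 CPM in replicate 4 and no count in the other 3. The fitted log2 change of -4.59 ± 0.99 (adjusted p = 0.00585) depends on how zero counts are smoothed, and it was -7.42 without 10 mM replicate 5. Its relatives MYB113 and MYB114, near-identical to each other, and the bHLH regulator TT8 also fell, with adjusted p of 0.0177, 0.0169 and 0.03. They were called in 14, 14 and 9 of the 16 fits.

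The NF-YA genes, singled out after their values were seen, encode the DNA-binding subunit of the CCAAT-binding factor NF-Y. In Arabidopsis, mRNAs of this family are cleaved under guidance of the microRNA miR169, and nitrogen starvation is known to lower miR169 and to raise NF-YA mRNAs. All 10 family members were tested. The mature miRNA and the best matches to its complement in the NF-YA mRNAs are shown first, since they separate 8 family members from the other two. The miRNA sequences are read 5′ to 3′ from the RefSeq annotation of assembly TAIR10.1, with bases 2 to 8 (the seed) in capitals.
miR169a: cAGCCAAGgatgacttgccga
miR169d: tGAGCCAAggatgacttgccg
miR169h: tAGCCAAGgatgacttgcctg
The forms a, b, c and h to n share the seed AGCCAAG, and the forms d, e, f and g begin 1 base earlier, so that their seed reads GAGCCAA. The NF-YA stretches are written 5′ to 3′ on the mRNA, in DNA letters, with the bases that pair with miR169a in capitals.
NF-YA5: aCGGgAAGTCATCCTTGGCTa
NF-YA8: aaGGgAAGTCATCCTTGGCTG
NF-YA9: gCGGCAAtTCATtCTTGGCTt
NF-YA2 and NF-YA10: caGGCAAaTCATCtTTGGCTc
NF-YA4: cCGagAAaTtAgCtaTGGCTa
NF-YA7: ctGGtAAaTCcgCCaTGGCTG
The stretch of NF-YA5 lies at chr1:20217494-20217514 on the minus strand and that of NF-YA2 at chr3:1676807-1676827 on the minus strand, both in the 3′ untranslated region. NF-YA1, NF-YA2, NF-YA3, NF-YA5, NF-YA6, NF-YA8, NF-YA9 and NF-YA10 each held a match in the 3′ untranslated region with at most 5 mismatches. Of 27440 scanned mRNA genes, 47 (0.171%) held a match with at most 5 mismatches anywhere in the mRNA. Its position was read for the NF-YA genes only. The best matches of NF-YA4 and NF-YA7 lie in the coding sequence, with 9 and 7 mismatches. A match of letters is a description and not a measured cleavage.

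Of the 10 NF-YA genes 0 rose and 9 fell, where 6.71% of all tested genes fell, and all 10 had a negative log2 change (median -0.83 against -0.02 over all tested genes). The 9 became 5 without 5 mM replicate 3, 4 without code set 1 and 0 without code set 2. NF-YA2 had 12.9 to 53.2 CPM (median 26.4) at 10 mM and 28.4 to 221 CPM (median 93) at 5 mM. The 5 mM plants above every 10 mM plant were replicates 1 to 5, while replicates 6, 7 and 8 had 28.5, 28.4 and 34.7 CPM. The log2 change was -1.83 ± 0.33 (adjusted p = 0.00141).

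NF-YA5, known from drought responses, had 4.89 to 11.3 CPM (median 8.55) at 10 mM and 8.6 to 27.2 CPM (median 19) at 5 mM, with 6 of the 8 plants at 5 mM above every 10 mM plant (log2 change -1.22 ± 0.22, adjusted p = 0.00141). NF-YA10 averaged 14.1 ± 10.4 CPM at 10 mM and 40.3 ± 29.4 CPM at 5 mM (log2 change -1.57 ± 0.34, adjusted p = 0.00592), and NF-YA3 7.85 ± 2.97 CPM at 10 mM and 19.7 ± 11.6 CPM at 5 mM (log2 change -1.24 ± 0.25, adjusted p = 0.00346). NF-YA9 had a small but even difference, 7.41 ± 0.578 CPM at 10 mM and 10.4 ± 2.32 CPM at 5 mM (log2 change -0.47 ± 0.13, adjusted p = 0.0134).

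The 2 genes without a 3′ match lay inside the spread of the others: NF-YA7 had a log2 change of -0.93 ± 0.26 (adjusted p = 0.0155) and NF-YA4 of -0.56 ± 0.17 (adjusted p = 0.024). NF-YA6 and NF-YA8 fell with adjusted p of 0.0467 and 0.0357, and NF-YA1, at 29.4 ± 2.18 CPM at 10 mM and 33.6 ± 5.34 CPM at 5 mM, was not called (adjusted p = 0.207). NF-YA2, NF-YA3, NF-YA5, NF-YA9 and NF-YA10 were called in all 16 fits, NF-YA7 in 15, NF-YA4 in 11, NF-YA8 in 8 and NF-YA6 in 7. The family median was -0.94, -1.11, -0.89 and -0.39 in code sets 1 to 4. Mature miR169 is not measured in these libraries, and its part in these changes was not tested. Of the 14 MIR169 loci in the table none passed the filter on low counts, and MIR169a, with 18 counts summed over the 10 mM plants and 3 over the 5 mM plants, had the most.

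**Figure D4:**
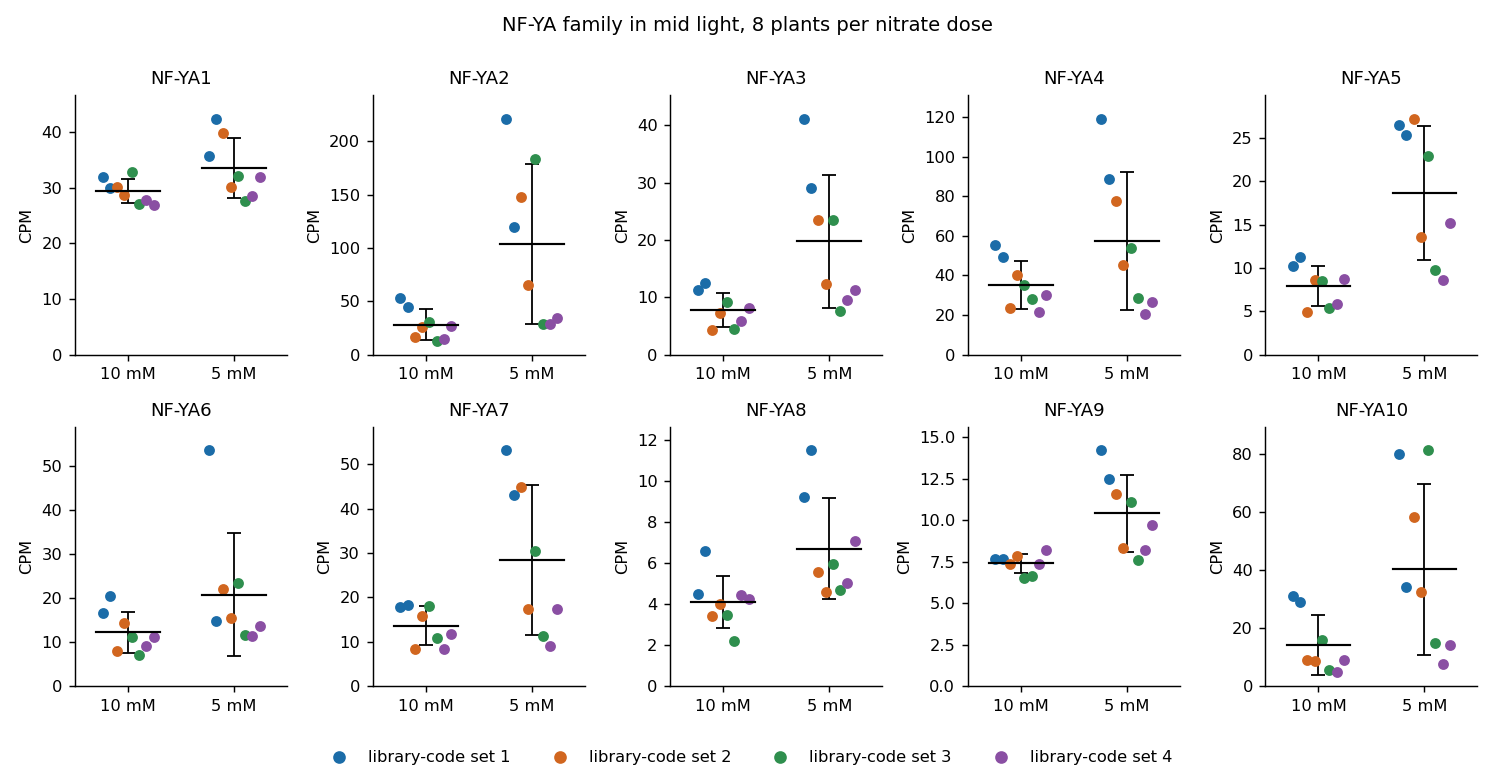
CPM of the 10 NF-YA genes in mid light, 10 mM left and 5 mM right, 1 point per plant coloured by library-code set, with the mean (horizontal line) and SD (bar) of 8 plants per dose. NF-YA2 spans 12.9 to 53.2 CPM at 10 mM and 28.4 to 221 CPM at 5 mM, and NF-YA1 is the member whose difference was not called.

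Few genes of sugar signalling and starch were called. By list, 2 of 19 sugar starvation genes rose and 1 fell (median 0.46), and 1 of 25 starch and sucrose genes rose and 1 fell (median -0.07), beside 7.11% higher and 6.71% lower over all tested genes. BZIP11, a transcription factor whose translation is repressed by sucrose, had 6.28 to 16.8 CPM (median 12.4) at 10 mM and 12.1 to 113 CPM (median 30.4) at 5 mM, with 5 mM replicates 1, 2, 3, 4 and 5 above all 10 mM plants (log2 change -1.73 ± 0.37, adjusted p = 0.00468). APL3, the sugar-induced large subunit of ADP-glucose pyrophosphorylase, fell (41.5 ± 17.9 CPM at 10 mM, 97.7 ± 74.5 CPM at 5 mM, adjusted p = 0.00626). APL1, the large subunit used in leaf starch synthesis, rose (390 ± 40.7 and 283 ± 106 CPM, adjusted p = 0.0253, called in 8 of the 16 fits). BZIP63, a transcription factor of the energy-starvation response, rose (45.7 ± 13.2 CPM at 10 mM, 25.7 ± 18 CPM at 5 mM, adjusted p = 0.0127). APL3 and BZIP63 went the other way within code set 4.

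Growth and clock genes contributed further calls. Of 11 expansin and growth genes 4 rose and 0 fell (median 0.95): GASA6, a gibberellin-regulated peptide, at 59.3 ± 57 CPM at 10 mM and 11.4 ± 9.58 CPM at 5 mM (adjusted p = 0.0167, lost without 10 mM replicate 5), and the wall-loosening expansins EXPA8, EXPA11 and EXPA1, called in 5, 6 and 4 of the 16 fits. Over all tested genes 7.11% rose and 6.71% fell. The 4 became 0 without 10 mM replicate 5, 1 without 10 mM replicates 1, 2, 3 or 6 or 5 mM replicates 1, 2, 3, 5 or 8, and 2 without 10 mM replicate 4. They also became 0 without code set 1, without code set 2 or without code set 3. The median difference of this list in log2 CPM was 2.04, 1, 0.05 and 0.48 in code sets 1 to 4. Among 18 clock genes, PRR3 and ELF4 fell (log2 changes -2.23 ± 0.47 and -1.72 ± 0.45, adjusted p = 0.00468 and 0.0104) and RVE1 and LUX rose (1.52 ± 0.39 and 0.71 ± 0.24, adjusted p = 0.00977 and 0.0372). ELF4 lost its call without 5 mM replicate 1, LUX was called in 7 of the 16 fits, and ELF4 went the other way within code set 4. CDC6, a DNA replication licensing gene, was the only one of 18 cell cycle genes called (6.27 ± 3.38 CPM at 10 mM, 2.62 ± 2.32 CPM at 5 mM, adjusted p = 0.0257, called in 11 of the 16 fits), although all 18 had a positive log2 change.

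Called genes with a symbol, a mean of at least 5 CPM and the same sign in all 4 code sets were ranked by size of change. Other named genes, outside this ranking, had larger changes. It was led upward, after BT2 and GASA6, by GRP9, a glycine-rich protein (log2 change 1.95 ± 0.68, adjusted p = 0.0428), SDI1, a sulfur-starvation gene that represses glucosinolate synthesis (1.93 ± 0.65, adjusted p = 0.0372), the purple acid phosphatase PAP8 (1.91 ± 0.43, adjusted p = 0.00649), EXPA8 (1.78 ± 0.64, adjusted p = 0.048), the ERF transcription factor ESE3 (1.76 ± 0.59, adjusted p = 0.0357), the carboxypeptidase BRS1 (1.70 ± 0.51, adjusted p = 0.0219), the ubiquitin ligase PUB29 (1.66 ± 0.52, adjusted p = 0.0251) and the vacuolar sugar transporter SWEET2 (1.62 ± 0.37, adjusted p = 0.00649). Of these 8, PAP8 and SWEET2 were called in all 16 fits, and the others in 5 to 11. ESE3 was 36.3 CPM in 10 mM replicate 5, and without that plant its log2 change was 1.14 and not called. SWEET2 had 7.92 to 28.4 CPM at 10 mM and 1.85 to 12.2 CPM at 5 mM, with 6 of the 8 plants at 5 mM below every 10 mM plant.

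In the same ranking, which does not hold PAP2 or FMO1, the downward genes were led by PCR1, a cadmium-resistance membrane protein (log2 change -3.63 ± 1.3, adjusted p = 0.0496), the branched-chain aminotransferase BCAT-2 (-3.46 ± 0.78, adjusted p = 0.00626), the Nudix hydrolase NUDT24 (-3.38 ± 0.78, adjusted p = 0.00649), F3'H, DFR and the wall-associated kinase WAK1 (-2.28 ± 0.78, adjusted p = 0.0382). WAK1 had 4.06 to 88.3 CPM (median 58.3) at 10 mM and 106 to 778 CPM (median 148) at 5 mM. Its groups did not overlap, a trait whose share over all tested genes is not given here, yet it was called in 7 of the 16 fits. PCR1 was 397 CPM in 5 mM replicate 2 and at most 56.9 CPM in the other 5 mM plants. It was called in 5 of the 16 fits, with a log2 change of -2.32 without 5 mM replicate 8.

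NUDT24 had 1.24 to 29.1 CPM (median 8.34) at 10 mM and 7.14 to 244 CPM (median 58.4) at 5 mM, and BCAT-2 had at most 2.82 CPM at 10 mM and up to 168 CPM at 5 mM. At 5 mM the low plants of both genes included replicates 6 and 7. The other genes that led downward were GolS2, galactinol synthase (-2.14 ± 0.56, adjusted p = 0.0104), the beta-glucosidase BGLU11 (-2.05 ± 0.55, adjusted p = 0.0115), the neutral invertase A/N-InvB (-1.99 ± 0.45, adjusted p = 0.00626) and the cytochrome P450 CYP704A2 (-1.91 ± 0.52, adjusted p = 0.012). All but CYP704A2, which lost its call without 5 mM replicate 8, were called in all 16 fits, as were BCAT-2 and NUDT24.

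Other lists held few calls, beside 7.11% higher and 6.71% lower over all tested genes. Sulfur genes had 2 of 14 higher, SDI1 and APR2, adenosine phosphosulfate reductase (adjusted p = 0.0264, called in 11 of the 16 fits). Iron genes had 1 of 7 higher, the ferritin FER3 (adjusted p = 0.0437, called in 4 of the 16 fits), and cytokinin genes 1 of 10 higher, the response regulator ARR9 (adjusted p = 0.0442, called in 6 of the 16 fits). Phosphate genes had 2 of 18 higher, SQD1, a sulfolipid enzyme (adjusted p = 0.0122), and the ribonuclease RNS1. RNS1 had 0 to 17.5 CPM at 10 mM and 0 to 7.41 CPM at 5 mM, and its log2 change of 3.1 (adjusted p = 0.0468, called in 8 of the 16 fits) was 0.99 and not called without 10 mM replicate 5. By code set, 1 to 4, the difference of RNS1 in log2 CPM was -0.76, 0.28, 2.43 and 2.6. In defence, 1 of 19 salicylic acid genes fell, the monooxygenase FMO1, at 0.0965 ± 0.174 CPM at 10 mM and 2.35 ± 5.67 CPM at 5 mM, where replicate 2 had 16.3 CPM. FMO1 had an adjusted p of 0.0247 and was called in 11 of the 16 fits, not in that without this plant. PR1, the classical salicylic acid marker, was not called (adjusted p = 0.737) and was 70 CPM in the same plant. Senescence genes had 1 of 16 lower, the autophagy gene ATG8A (adjusted p = 0.0395, called in 7 of the 16 fits), and vascular markers 1 of 8 lower, the phloem regulator APL (19.9 ± 2.57 CPM at 10 mM, 24.3 ± 6.1 CPM at 5 mM, called in 6 of the 16 fits). The jasmonate, glucosinolate, cold, shade and flowering lists and the epidermis and guard cell markers held 0 calls with edgeR.

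Summed marker levels were 1090 to 1600 CPM at 10 mM and 391 to 1320 CPM at 5 mM for the epidermis, 2020 to 8780 and 775 to 8190 CPM for guard and myrosin cells, and 410 to 577 and 459 to 666 CPM for the vasculature. In whole leaf punches, fewer cells of a type and less RNA per cell cannot be told apart.

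Across the dose series in mid light, the neighbouring steps share the plants of 5 mM or of 10 mM with this comparison, so their changes are not independent of it. NIA2 averaged 256 ± 178, 416 ± 283, 1080 ± 500 and 874 ± 330 CPM (SD over 8 plants) in the plants given 2, 5, 10 and 20 mM. LBD37 averaged 20.7 ± 14.2, 29.2 ± 11, 88.1 ± 39.2 and 97.6 ± 39.3 CPM, RBCS1B 619 ± 658, 869 ± 669, 1980 ± 438 and 2410 ± 864 CPM, and NF-YA2 117 ± 72, 104 ± 75.3, 28.2 ± 14.3 and 14.8 ± 4.75 CPM. DFR averaged 347 ± 219, 164 ± 175, 32.6 ± 44.4 and 1.45 ± 1.52 CPM, and CHLI1 185 ± 172, 273 ± 181, 476 ± 123 and 518 ± 145 CPM. For 5 against 2 mM, 3264 genes (16.7%) were called, 1644 higher (8.43%) and 1620 lower (8.31%). Of these 6 genes CHLI1 was among them (adjusted p = 0.0395), and NIA2, LBD37, RBCS1B, NF-YA2 and DFR were not, with adjusted p of 0.174, 0.279, 0.245, 0.653 and 0.251. GLN2, RBCS1A and LHCB5 were also called higher at 5 than at 2 mM (adjusted p = 0.0181, 0.0207 and 0.00386). For 20 against 10 mM, edgeR called 0 genes, with 1235 at an unadjusted p under 0.05, DESeq2 called 16 and limma-voom 0.

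**Figure D5:**
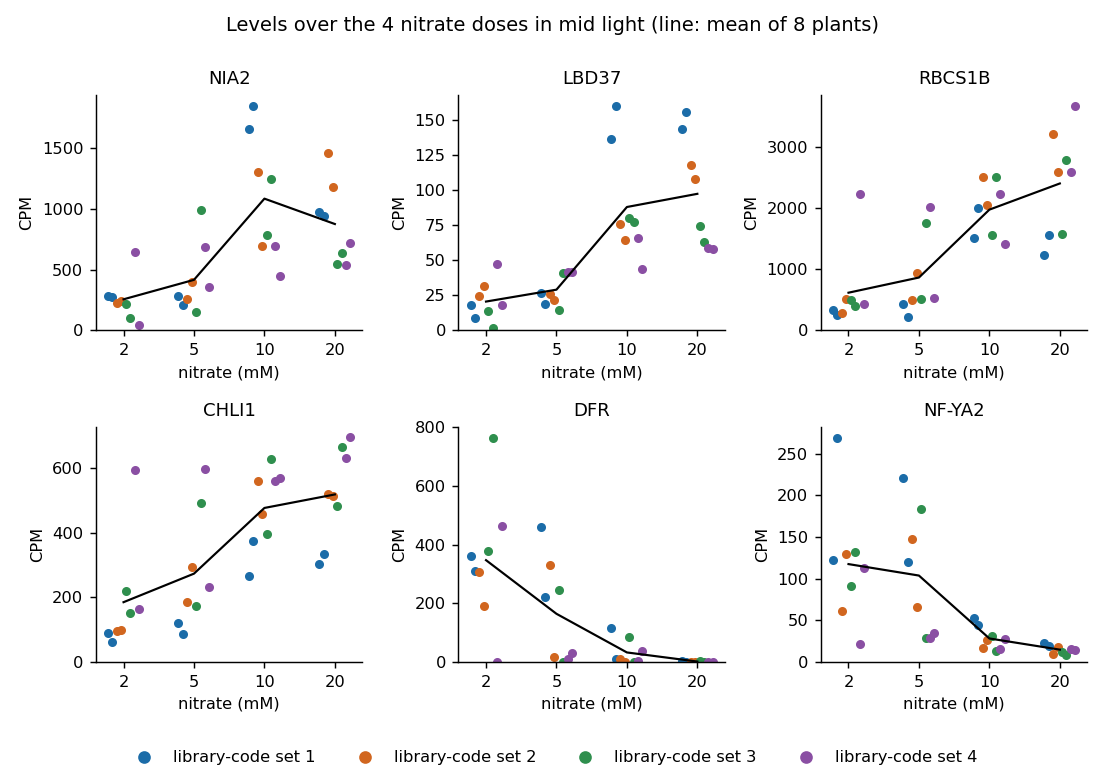
CPM of 6 genes at the 4 nitrate doses in mid light, 1 point per plant coloured by library-code set and the line through the means of 8 plants. NIA2, LBD37, RBCS1B and CHLI1 have higher means at 10 than at 5 mM, and DFR and NF-YA2 lower ones.

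The same step of 10 against 5 mM was also fitted at the other light levels, in other plants. In low light edgeR called 0 genes (968 at an unadjusted p under 0.05), DESeq2 6 and limma-voom 0. In high light 1516 genes (7.78%) were called, 1066 higher (5.47%) and 450 lower (2.31%). NIA2 averaged 628 ± 155 CPM at 10 mM and 486 ± 175 CPM at 5 mM in low light (log2 change 0.44, adjusted p = 0.986), and 438 ± 448 CPM at 10 mM and 88.9 ± 98.6 CPM at 5 mM in high light (log2 change 2.6, adjusted p = 8.67e-05). In high light 5 of 20 Calvin cycle genes rose (median 0.45) and 16 of 20 antenna genes (median 0.93), and 1 of 10 NF-YA genes fell (median -0.65). In low light the medians of these 3 groups were 0.28, 0.2 and -0.23.

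The difference itself was tested with an interaction term. Between mid and low light edgeR called 0 genes for it, with 1373 at an unadjusted p under 0.05, DESeq2 3 and limma-voom 0. For NIA2 the mid minus low difference of the log2 change was 0.88 ± 0.56 (adjusted p = 0.691) and for NF-YA2 -1.42 ± 0.45 (adjusted p = 0.687). Between mid and high light edgeR called 1 gene (0.00513%), with 1470 at an unadjusted p under 0.05, DESeq2 10 and limma-voom 0. That gene was AT2G43590, a chitinase family gene, with a difference of -7.13 ± 1.34 (adjusted p = 0.0182). In mid light it had 0.394 to 5.04 CPM at 10 mM and 0.661 to 119 CPM at 5 mM, with the highest value in replicate 1. In high light it had 0.684 to 127 CPM at 10 mM, where all plants but replicate 1 had at most 2.4 CPM, and 0 to 0.774 CPM at 5 mM. The call was lost without high light 10 mM replicate 1 (adjusted p = 0.274, log2 difference -5.13) and without mid light 5 mM replicate 1 (adjusted p = 0.0651, log2 difference -5.98). It was also lost without mid light 10 mM replicates 1 or 2 (adjusted p = 0.0706 and 0.0642) and without high light 5 mM replicates 1 or 2 (adjusted p = 0.119 and 0.101). The adjusted p ran from 0.00652 to 0.0706 over the 16 fits that leave out 1 mid light library, from 0.00385 to 0.274 over 16 such fits for high light, added after the values were seen, and over the other alternatives from 1.13e-06 to 1.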

How the data were processed

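The deposited values are whole-number read counts per gene, 1 column per library, which the authors made from stranded mRNA libraries, per the labels' protocols. Per the submitters' processing notes, STAR 2.5.3a, featureCounts and the TAIR10 genome were used. The strand setting of the counting is not given in the sources used here, so reads of overlapping or antisense gene pairs may be mixed.

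From these counts, CPM, percent shares and log2 changes were derived. Genes were filtered with filterByExpr (19498 of 28025 with any count), scaled by TMM, then fitted in edgeR 4.0.16 (robust quasi-likelihood test, R 4.3.3) over all 96 libraries, with 12 group means and the code set within each light level (75 residual degrees of freedom, common biological coefficient of variation 0.336). An SE is the log2 change over the square root of F. Log2 CPM used a prior count of 2. DESeq2 1.42.0 and limma 3.58.1 were alternatives. Tested on simulated counts for this comparison over 19146 genes, the fit recovered 1 of 67, 38 of 67 and 66 of 66 changed genes at log2 changes of 0.5, 1 and 2, and called 1 of 18946 unchanged genes. The simulation gave every gene the common coefficient and held fewer changed genes than were called here. Its shares therefore do not carry over to the real data.

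Symbols are from RefSeq TAIR10.1 (32548 of 32833 loci matched). The comparison, its 33 gene lists and the named genes were chosen with earlier results of these data known. Of 100 named genes, 82 follow a rule: the 10 largest changes in each direction among called genes with a symbol, a mean of at least 5 CPM and the same sign in all 4 code sets, up to 4 members per list with the smallest p, NIA1, NIA2, NIR1, NRT2.1, ASN1, RBCS1A, CHS, DFR, AT1G68670, LBD37 and PR1, and the called interaction genes. The other 18 were chosen after their values were seen, as were PAL1 and C4H. The rule on the smallest p of a list also names AT2G47880, which is among these 18, and AT5G02120, APL, AT4G14090 and AT1G03940. No pair of libraries within a dose looked like a copy (lowest chi-square per degree of freedom 21.4 over 56 pairs).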

Additional observations from a re-analysis of the deposited data

Results flagged for a closer look

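Within 1 dose, 11 gene levels of single plants stood apart from the other 7 plants by the gap test (Dixon's ratio on the log2 scale). With 206 groups of 8 tested, chance alone gives about 10. At 10 mM these were ESE3 in replicate 5 (36.3 CPM, others 3.06 to 7.62), A/N-InvB in replicate 3 (0.663 CPM, others 1.52 to 2.98), PAP2 in replicate 5 (0.867 CPM, others 0 to 0.08), FMO1 in replicate 2 (0.513 CPM, others 0 to 0.101) and EXPA11 in replicate 8 (3.14 CPM, others 16.8 to 40.6). At 5 mM they were SDI1 in replicate 7 (0.366 CPM, others 2.06 to 6.52), NF-YA6 in replicate 1 (53.5 CPM, others 11.3 to 23.3) and 4 genes in replicate 2. In that plant LHCA6 had 22.6 CPM (others 81.2 to 232), RNS1 7.41 CPM (others 0 to 0.755), PR1 70 CPM (others 0 to 2.6) and ARR9 10.3 CPM (others 19.1 to 33). Between light levels, the 10 against 5 mM change of AT2G43590 differed by a log2 of -7.13, mid minus high light, by an interaction test. Among other fits, that call was lost without high light 10 mM replicate 1 (edgeR adjusted p = 0.274) or mid light 5 mM replicate 1 (0.0651). It was also lost with limma-voom (adjusted p = 0.0527) and with only the 32 libraries in edgeR (adjusted p = 0.524).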

How the results depend on the processing

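The 2694 calls became 2618 with RLE size factors, 1969 with no filter on low counts, 3123 with DESeq2, 2745 with limma-voom, 2344 with 1 code set block for all light levels and 3250 without code set 4. They became 0 with only the 16 libraries, 325 (105 higher, 220 lower) with no code set block, 100 (19 and 81) without code set 1, 0 without code set 2 (3819 at an unadjusted p under 0.05) and 1149 (665 and 484) without code set 3. Within code sets 1 to 4 they were 0, 36 (25 and 11), 2 (2 and 0) and 0. Leaving out 1 library gave 1266 to 3632 (634 to 1813 higher, 498 to 1819 lower). Of the listed genes, the calls were 0 with only the 16 libraries, 14 with no block, 1, 0 and 71 without code sets 1, 2 and 3, 0, 7, 0 and 0 within code sets 1 to 4, and 56 to 170 with 1 library left out. The labels do not say that plants with the same replicate number share anything: 5 of 8 same-numbered pairs correlated above 0.1 (all pairs -0.23 to 0.46), and 5 of 8 correlated best with their own number, a hint of pairing that the other 3 do not share. A replicate block in place of the code set gave 2637 calls, 7 flavonoid and anthocyanin enzymes and 2 growth genes in place of 4 and 4, and 0 calls for the difference between mid and high light (AT2G43590 adjusted p = 0.0728). That difference had 10 calls with DESeq2, 0 with limma-voom, 0 with only the 32 libraries, 3 with no code set block, 3 with 1 shared block, 0, 2, 0 and 3 without code sets 1 to 4, 0, 25 and 0 within code sets 2, 3 and 4, and 0 to 7 with 1 mid or high light library left out, the high light ones added after the values were seen. The difference between mid and low light had 3 calls with DESeq2 and 0 to 0 with 1 library left out.

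The difference in the chloroplast share was -0.236 without code set 1 and -0.11 to 0.152 with 1 library left out. That of the 10 most abundant genes was 0.925 (exact permutation p = 0.231) without code set 1, 1.24 (p = 0.12) without code set 2, 1.08 to 1.73 with 1 library left out, and 1.44 (p = 0.0626) with labels exchanged over all 16. The mitochondrial share ran from -0.0804 to -0.0557 with 1 library left out. Log2 changes of the other sign were found within code set 4 for CHS (0.6), MYB113 (0.15), APL3 (0.1), GPT2 (1), BZIP63 (-0.4), TPS9 (-0.07), ELF4 (0.42), BT5 (-1.2), NLP8 (0.11) and NF-YA4 (0.13), within code set 1 for AAP2 (0.69) and RNS1 (-1.14), within code set 2 for NRT2.1 (1.12) and within code set 3 for NRT2.5 (0.04). TPS9 was called in the main fit (edgeR adjusted p = 0.0413) and in 6 of the 16 fits that leave out 1 library. The log2 change of PR1 was 0.49 with DESeq2, 1.7 without code set 1, 8 within code set 3 and -3.35 to 1.2 with 1 library left out (1.2 without 5 mM replicate 2). The cause was not tested. Changes of a log2 of 0.5 were mostly missed in simulated counts, which gave every gene the same spread. Fewer genes were changed there than were called here, so that share does not carry over to these data.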

Other observations

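Genes whose RefSeq product text names a tRNA ligase or synthetase were grouped after their values were seen, by that text alone. The group is not a list of tRNA-charging enzymes, since it also holds SAMBA, proteins with domains of unknown function such as AT1G48450, and proteins named for a YbaK or L25 domain. Of its 50 tested genes, 17 rose (34%, against 7.11% of all tested genes) and 2 fell (4%, against 6.71%), with a median log2 change of 0.23. SRS, a seryl-tRNA synthetase, one of the enzymes that charge tRNAs with amino acids, averaged 27.8 ± 7.73 CPM at 10 mM against 16.5 ± 9.35 CPM at 5 mM (± SD over 8 plants; edgeR adjusted p = 0.00465). OVA1, a methionyl-tRNA synthetase, averaged 71.8 ± 19.6 CPM at 10 mM and 48.8 ± 18.1 CPM at 5 mM (edgeR adjusted p = 0.00626). The group median was 0.03, 0.39, 0.26 and 0.18 in code sets 1 to 4. How many of the 16 fits with 1 library left out still called SRS or OVA1 is not given here. Nor are the counts of calls in this group, or in the 2 below, without 1 library or without 1 code set. Of 237 pentatricopeptide repeat genes, which act on organelle RNAs, 19 rose (8.02%) and 1 fell (0.422%), with a median of 0.02. Of 51 WRKY transcription factor genes 2 rose (3.92%) and 4 fell (7.84%), with a median of -0.12.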
